A study of Arabidopsis thaliana with 12 samples.

Results

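The light-harvesting and photosystem genes of the Arabidopsis thaliana nucleus were followed in seedlings of 2 mutants, prmt5-5 and picln-1, each set against wild type (WT). The set holds 46 genes, taken by locus from a list of antenna proteins, photosystem subunits, plastocyanins and accessory proteins. The nuclear chromosomes hold 27444 annotated protein-coding genes. The list was chosen with earlier results of these data known, so the shares of its genes that are listed only describe the set. The number of genes the authors tested, inferred from their p-values, was taken as 16747 for prmt5-5 and 16473 for picln-1. In all, 19 of the 46 appeared in at least 1 of the authors' 4 tables of changed genes and changed gene segments, and 27 appeared in none.

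Chlorophyll-binding proteins of the LHC family form the antennae that gather light for the photosystems. LHCB proteins serve photosystem II, with LHCB1, LHCB2 and LHCB3 in the major trimers and LHCB4 to LHCB6 as minor linkers, and LHCA proteins serve photosystem I. The photosystem subunits are encoded partly in the chloroplast and partly in the nucleus. The set holds nuclear genes for PSA proteins of photosystem I and PSB proteins of photosystem II, the latter including proteins of the oxygen-evolving complex. Plastocyanin carries electrons to photosystem I. In leaves, the nuclear genes for these proteins are known to respond to light, to the circadian clock and to the state of the chloroplast.

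The seedlings carried prmt5-5, a mutation of the arginine methyltransferase PRMT5, or picln-1, a mutation of the snRNP assembly chaperone pICln, or were WT. The titles of the WT libraries read Col. There were 4 libraries of polyadenylated RNA from each of the 3 genotypes, 12 in all. Seedlings were kept at 22 °C to an age of 10 days, and the regime of 12 h of light and 12 h of dark a day lasted 9 days, per the sample labels. The design line of the series names a cold treatment instead, which no sample label gives, and this conflict could not be settled. Each mutated gene is represented by a single mutant line, and the labels do not say whether the libraries of a genotype came from separately grown plants, so the p-values may measure technical spread alone. Both mutants were set against the same WT libraries. Whole seedlings were sampled, so fewer cells of a type and less RNA per cell cannot be told apart. No hour of harvest was used here, and whether the daily phase of expression differed between genotypes was not tested.

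The values used are the authors' fold changes, p-values and retained fractions. Values per library were not analysed here, and depth is unknown. A gene counts as listed where the authors gave an adjusted p below 0.05. The smallest listed change was 0.58 on the log2 scale, or about 1.5-fold. A gene that is not listed may have changed by less, failed the p limit or not been tested: by the adjusted p alone, at least 6840 genes passed in prmt5-5 and at least 2145 in picln-1, many more than the 1531 and 279 listed. An approximate standard error (SE) was computed for each log2 change by dividing it by the normal quantile that matches the authors' p. In the authors' deposited table pICln itself was 11.2-fold lower in picln-1 than in WT, and intron 20 of 22 of PRMT5 had a retained share of junction reads of 81.0% in prmt5-5, 0.870% in picln-1 and 0% in WT. Of 13 root marker genes, none was listed in prmt5-5, where 9.14% of all genes tested were listed. In picln-1, where 1.69% of all genes tested were listed, 1 of the 13 was listed. This was IRT1, the iron transporter of the root epidermis, which fell by 0.63 on the log2 scale in the authors' deposited table. Counts over 13 genes cannot show whether the share of root differed. The part of root and shoot in the results below was not tested beyond these counts.

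Most antenna genes, 15 of 20, were listed as higher in prmt5-5 than in WT. Of the 46 genes, 17 were listed as higher in prmt5-5 and 1 as lower, and 15 of the 17 encode antenna proteins: 11 of 14 LHCB genes and 4 of 6 LHCA genes. Across all genes tested, the authors' deposited table lists 4.99% as higher and 4.15% as lower in prmt5-5, 9.14% in both directions. The share of listed genes was 75.0% among the 20 antenna genes and 11.5% among the other 26. The median log2 rise of the 15 antenna genes was 0.97, a 1.95-fold rise, and that of all 836 genes listed as higher was 0.80, a 1.75-fold rise, from the authors' deposited table. Among the 836, 3 of the 25 largest rises and 5 of the 100 largest belonged to antenna genes.

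**Figure D1:**
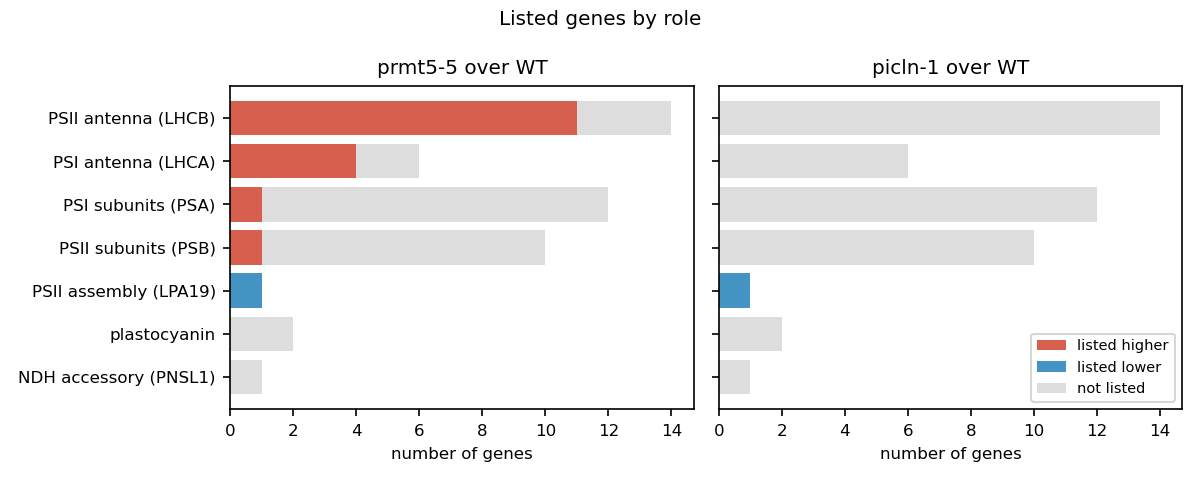
Numbers of the 46 genes listed as higher (red), listed as lower (blue) or not listed (grey) by role, in prmt5-5 (left) and picln-1 (right) against WT; the horizontal axis counts genes. In prmt5-5 the red bars reach 11 of 14 LHCB and 4 of 6 LHCA genes and 1 gene each of the PSA and PSB groups, whereas in picln-1 a single gene, LPA19, is listed.

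The LHCB2 genes, whose proteins sit in the mobile trimers that move between the photosystems in state transitions, had the largest rises. LHCB2.2 (AT2G05070, chromosome 2, 1799234 to 1800472, minus strand) was 5.29-fold higher in prmt5-5 than in WT by the authors' deposited table (log2 change 2.40, approximate SE 0.14, adjusted p = 7.75e-66). This was the eighth largest of the 836 rises. LHCB2.1 (AT2G05100) was 3.76-fold higher (log2 change 1.91, approximate SE 0.15, adjusted p = 2.26e-34), and LHCB2.3 (AT3G27690) was 3.75-fold higher (log2 change 1.91, approximate SE 0.15, adjusted p = 4.34e-33), both in the authors' deposited table. LHCB2.1 and LHCB2.3 therefore had nearly equal log2 changes, within their approximate SE. The family ranged from 1.91 to 2.40 on the log2 scale, above every other listed antenna gene.

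LHCB1 encodes the most abundant proteins of the major trimers, and 4 of its 5 genes were listed with log2 changes close to each other. LHCB1.5 (AT2G34420) rose by 1.04 (approximate SE 0.14), LHCB1.1 (AT1G29920) by 0.97 (0.13), LHCB1.4 (AT2G34430) by 0.94 (0.28) and LHCB1.2 (AT1G29910) by 0.89 (0.10) on the log2 scale in the authors' deposited table. These 4 log2 changes differ by less than the approximate SE of LHCB1.4, whose adjusted p of 0.00304 was the weakest among the listed photosystem genes in the authors' deposited table. LHCB1.3 (AT1G29930) was not listed. LHCB3 (AT5G54270), the third protein of the major trimers, was 2.57-fold higher (log2 change 1.36, approximate SE 0.12, adjusted p = 2.74e-26 in the authors' deposited table).

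Several LHCB genes are near copies that sit side by side, and how reads shared between copies were counted is not given in the sources used. LHCB1.2, LHCB1.1 and LHCB1.3 are consecutive genes on chromosome 1, LHCB1.5 and LHCB1.4 are neighbours on chromosome 2, and LHCB2.2 and LHCB2.1 are consecutive protein-coding genes 22517 bases apart. The coding sequences of LHCB2.1 and LHCB2.2 are 96.6% identical and their proteins 97.7% identical. The proteins of LHCB1.1 and LHCB1.2 are 100% identical over 267 residues, and LHCB1.3 differs from both by little, at 99.6%. By exact windows of 50 bases, 28.2% of the LHCB2.2 transcript and 22.7% of the LHCB2.1 transcript occur in the other. Among the LHCB1 transcripts the share of windows found in another LHCB1 transcript lay between 10.6% for LHCB1.2 and 20.5% for LHCB1.1. Values of single LHCB1 genes and of LHCB2.1 and LHCB2.2 are therefore uncertain, including the absence of LHCB1.3. LHCB2.3 and all remaining listed antenna genes except LHCA2 share no such window with another annotated transcript, and LHCA2 shares 8.76% of its windows with AT5G28450.

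The minor antenna was listed in part. LHCB4.2 (AT3G08940) rose by 1.06 (approximate SE 0.13), LHCB6 (AT1G15820) by 0.84 (0.09) and LHCB5 (AT4G10340) by 0.81 (0.10) on the log2 scale in the authors' deposited table. LHCB4.1 and LHCB4.3, the other genes for the LHCB4 linker, were not listed. All 3 log2 changes lay below those of the LHCB2 genes.

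All 4 genes of the standard photosystem I antenna belt were listed as higher. LHCA4 (AT3G47470), a partner of LHCA1 that holds the red-shifted chlorophylls, was 2.58-fold higher in prmt5-5 (log2 change 1.37, approximate SE 0.12, adjusted p = 8.20e-28 in the authors' deposited table). LHCA1 (AT3G54890) rose by 0.91 (approximate SE 0.11), LHCA3 (AT1G61520) by 0.68 (0.10) and LHCA2 (AT3G61470) by 0.66 (0.09) on the log2 scale in the authors' deposited table. LHCA5 and LHCA6, which link photosystem I to the NDH complex, were not listed.

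**Figure D2:**
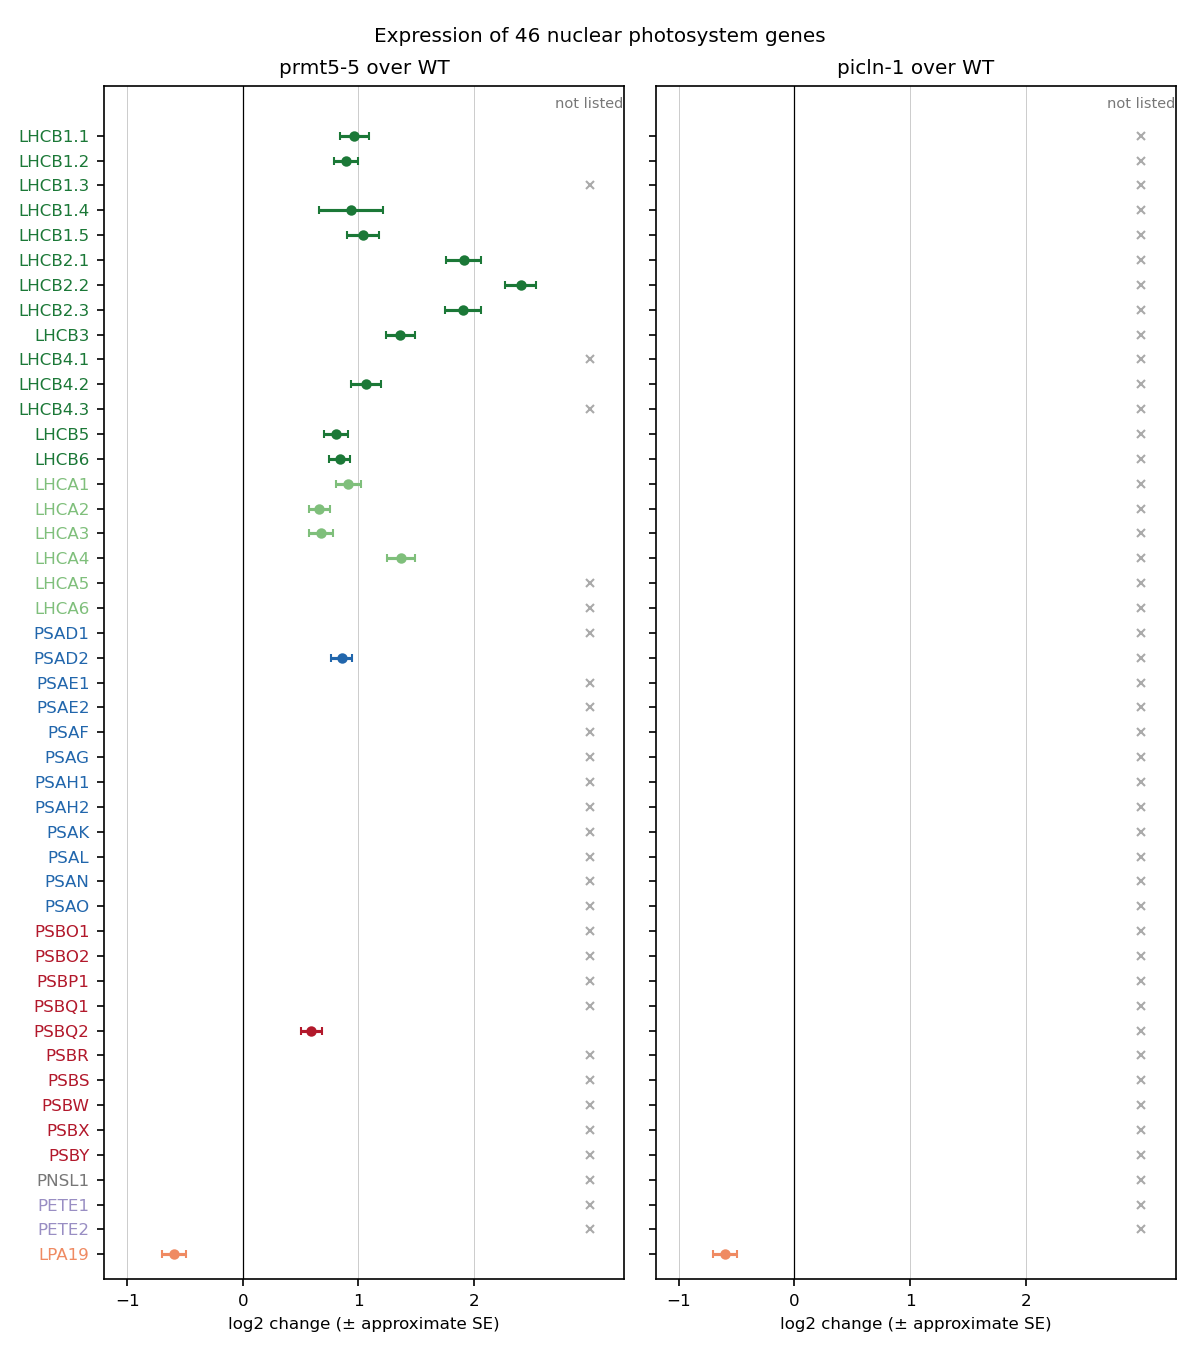
Log2 change of each of the 46 genes in prmt5-5 (left) and picln-1 (right) over WT, from the authors' deposited tables; bars are approximate SEs and grey crosses at the right edge mark genes that are not listed, with no value. LHCB2.2 lies furthest right at 2.40, the other listed antenna genes lie between 0.66 and 1.91, and LPA19 lies at -0.60 in both panels.

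Genes of the photosystem subunits were mostly not listed in prmt5-5. Of 12 PSA genes, PSAD2 (AT1G03130), a ferredoxin-docking subunit on the stromal side of photosystem I, was listed in the authors' deposited table, with a log2 rise of 0.86 (approximate SE 0.09, adjusted p = 1.04e-19). Its copy PSAD1, whose coding sequence is 86.3% identical, was not. PSAE1, PSAE2, PSAF, PSAG, PSAH1, PSAH2, PSAK, PSAL, PSAN and PSAO, further peripheral subunits of photosystem I, were not listed either. Of 10 PSB genes, PSBQ2 (AT4G05180), a lumenal protein of the oxygen-evolving complex, was listed just past the size limit of the table, with a log2 rise of 0.59 (approximate SE 0.09) in the authors' deposited table. PSBO1, PSBO2, PSBP1 and PSBQ1, the other proteins of that complex, were not listed, nor were PSBR, PSBS (the sensor of photoprotective quenching), PSBW, PSBX and PSBY. The plastocyanin genes PETE1 and PETE2 were absent from all tables. Among the subunit genes, 1 of 12 (8.33%) and 1 of 10 (10.0%) were listed, shares near the 9.14% of all genes tested.

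**Figure D3:**
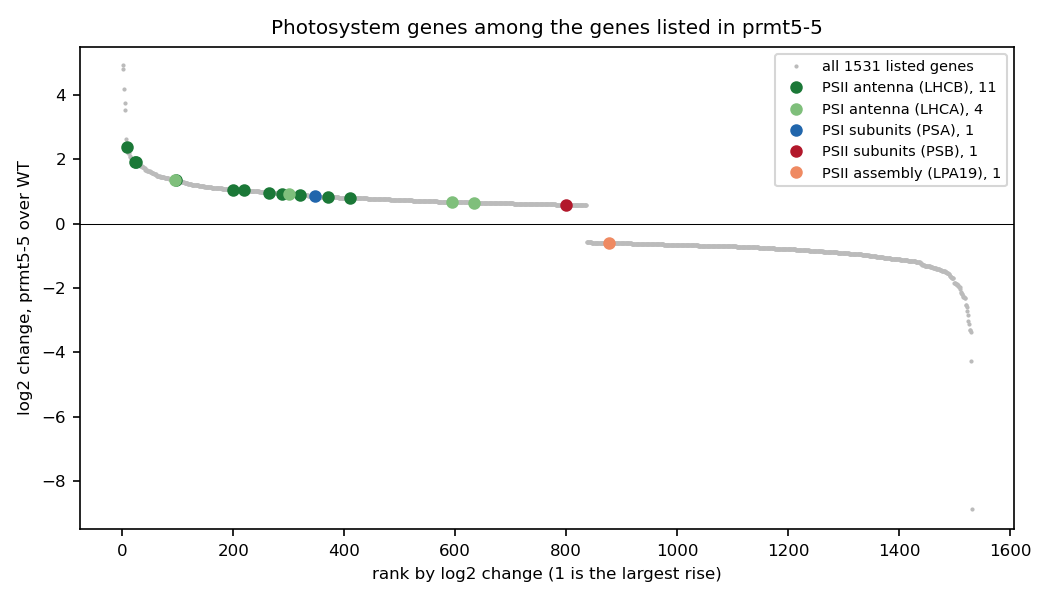
All 1531 genes listed in prmt5-5, ordered by log2 change over WT (vertical axis) from the largest rise to the deepest fall (horizontal axis, rank), with the listed photosystem genes in colour. Of the 18 coloured points, 17 lie above 0, with LHCB2.2 at rank 8, and LPA19 lies below 0 close to the size limit.

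LPA19 (AT1G05385, chromosome 1, 1582671 to 1583760), which assists photosystem II assembly, was the exception in direction. It fell by 0.60 on the log2 scale in prmt5-5 (approximate SE 0.11, adjusted p = 1.89e-07) and fell by 0.60 in picln-1 (approximate SE 0.11, adjusted p = 1.08e-06), both in the authors' deposited tables. It was the only gene of the 46 listed for expression in picln-1, 1 of 46 (2.17%), where 1.69% of all genes tested were listed and 0.996% were listed as lower. LPA19 is the only assembly gene of the set, and none of a separate 12 photosystem assembly genes was listed for expression in either mutant. The WT libraries are shared by both comparisons. Thus none of the 20 antenna genes was listed in picln-1, where 0.698% of all genes tested were listed as higher. The difference between prmt5-5 and picln-1 in antenna expression could not be tested, since the tables give no value for a gene that is not listed.

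Of the 18 genes listed in prmt5-5, 8 overlap another annotated gene, 7 of them on the opposite strand only. The exception, PSAD2, overlaps its neighbour by 2 bases on the same strand. Among the overlapping genes 1 was itself listed: AT2G34410, which shares 99 bases with LHCB1.5 on the opposite strand, rose by 0.73 on the log2 scale in the authors' deposited table. AT2G08665, a long noncoding RNA gene, covers all 1045 bases of LHCB1.5 on the opposite strand and was not listed. The sources used give no strand setting for the counting, so reads in these overlaps cannot be told apart.

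The 4 genes of the set with the largest rises are shown so that their promoters can be read side by side. Each is given as the 250 bases before its annotated start, 5′ to 3′ on the strand of the gene. Sequences are from RefSeq TAIR10.1. Capitals mark matches on either strand to the motifs searched: the G-box with the letters CACGTG, the I-box with GATAAG, the motif CCAATC (which holds a CCAAT box), the evening element core with AATATCT and the TATA box with TATAAA. In none of the 46 promoters did matches of different motifs share bases.
LHCB2.2 (chr2:1800473-1800722, minus strand): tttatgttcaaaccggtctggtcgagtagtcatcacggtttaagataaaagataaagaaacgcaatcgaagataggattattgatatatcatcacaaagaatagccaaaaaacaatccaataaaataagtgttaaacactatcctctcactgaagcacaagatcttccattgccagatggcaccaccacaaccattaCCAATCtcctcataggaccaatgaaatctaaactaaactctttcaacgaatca
LHCB2.1 (chr2:1824481-1824730, minus strand): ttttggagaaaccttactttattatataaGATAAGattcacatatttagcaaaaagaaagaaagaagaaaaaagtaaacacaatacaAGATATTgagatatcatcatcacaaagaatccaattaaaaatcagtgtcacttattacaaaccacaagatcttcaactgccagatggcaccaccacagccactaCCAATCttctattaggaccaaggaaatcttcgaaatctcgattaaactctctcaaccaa
LHCB2.3 (chr3:10255656-10255905, plus strand): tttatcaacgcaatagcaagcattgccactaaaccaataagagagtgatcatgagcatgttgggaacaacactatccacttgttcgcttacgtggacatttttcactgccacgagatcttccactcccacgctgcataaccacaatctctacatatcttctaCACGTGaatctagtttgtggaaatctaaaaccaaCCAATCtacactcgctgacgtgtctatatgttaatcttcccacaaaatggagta
LHCA4 (chr3:17495034-17495283, minus strand): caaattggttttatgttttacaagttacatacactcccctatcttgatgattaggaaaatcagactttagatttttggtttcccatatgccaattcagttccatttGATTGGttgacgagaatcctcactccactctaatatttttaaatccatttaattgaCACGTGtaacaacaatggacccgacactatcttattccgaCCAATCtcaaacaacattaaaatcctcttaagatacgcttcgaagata

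All 4 promoters held CCAATC between -59 and -48, counted as the first base of the match from the annotated start, at -53 in LHCB2.2, -59 in LHCB2.1, -54 in LHCB2.3 and -48 in LHCA4. LHCA4 held another match at -144. LHCB3, whose log2 rise of 1.36 equals that of LHCA4 within the approximate SE, had no CCAATC in its promoter, so the match does not hold for the 5 largest rises. LHCB2.3 and LHCA4 both had a G-box at -88. Among the 15 antenna genes listed as higher in prmt5-5, 8 (53.3%) held CCAATC in this window, against 2 of the 5 antenna genes not listed, 3 of the other 26 photosystem genes (11.5%) and 10.2% of the promoters of 27443 protein-coding genes. The G-box was in 3 of the 15 (20.0%), in 1 of the 5 antenna genes not listed (20.0%), in 4 of the other 26 (15.4%) and in 6.49% of all promoters. The I-box was in 4 of the 15 (26.7%), in 0 of the 5, in 8 of the 26 (30.8%) and in 12.3% of all promoters, and the evening element core was in 1 of the 15 (6.67%), in 1 of the 5, in 4 of the 26 (15.4%) and in 10.0% of all. The TATA box was in 5 of the 15 (33.3%), in 3 of the 5, in 15 of the 26 (57.7%) and in 47.3% of all. Among 813 promoters of genes listed as higher in prmt5-5, CCAATC was in 12.2% and the G-box in 8.86%. In the same 813 the I-box was in 12.9%, the evening element core in 12.5% and the TATA box in 47.0%. The LHCB2 and LHCB1 copies share ancestry, so these promoters are not independent, and a match describes letters and not binding.

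The second measurement was splicing. The authors split each gene into bins at its splice sites, such as single introns, and gave for each listed bin the pooled share of junction reads that retain it, with limits of an adjusted p below 0.15 and a change of the fraction above 0.05. The 46 genes hold 87 annotated introns, and 12 of the genes, among them all 5 LHCB1 genes, have none. Only 1 gene had a listed bin in either mutant: PNSL1 (AT2G39470, chromosome 2, 16476198 to 16477843, plus strand), a PsbP-like protein of the lumenal subcomplex of the NDH complex, which runs cyclic electron flow around photosystem I. PNSL1 was not listed for expression in either mutant, and none of the 18 members of the set listed for expression had a listed bin. Of these 18, 13 have an annotated intron. The same overlap was not counted over all listed genes, so this absence has no background to be read against. Of the 34 members with an annotated intron, 1 (2.94%) had a listed bin in each mutant, where 11.6% of all protein-coding genes with an annotated intron had one in prmt5-5 and 2.099% in picln-1. With 3 listed bins in each mutant, the 46 genes had 3.45% of their annotated introns listed in each, where 2.88% of all bins tested were listed in prmt5-5 and 0.479% in picln-1. All 6 calls had higher usage in the mutant, as did 3335 of all 3406 bins listed in prmt5-5 and 484 of 541 in picln-1. Bins listed as higher were 2.82% of all bins tested in prmt5-5 and 0.428% in picln-1. The 11.6% and 2.099% count genes whether or not they were tested. The bins tested per gene are unknown, so these shares rest on different counts. All listed bins of the set come from PNSL1, its only NDH accessory gene.

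PNSL1 retained more of 5 of its 7 introns in at least 1 mutant. These 5 introns and the 2 that were not listed are shown because they allow the splice sites of a single gene to be read beside its splicing. Each is given 5′ to 3′ from RefSeq TAIR10.1, with its first 6 and last 3 bases in capitals.
PNSL1 intron 1 (chr2:16476395-16476476): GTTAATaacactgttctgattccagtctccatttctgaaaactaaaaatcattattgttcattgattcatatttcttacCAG
PNSL1 intron 2 (chr2:16476559-16476643): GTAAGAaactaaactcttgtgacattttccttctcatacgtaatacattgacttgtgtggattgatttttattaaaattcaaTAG
PNSL1 intron 3 (chr2:16476749-16476841): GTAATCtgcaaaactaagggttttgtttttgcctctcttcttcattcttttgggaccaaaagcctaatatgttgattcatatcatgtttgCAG
PNSL1 intron 4 (chr2:16476916-16477001): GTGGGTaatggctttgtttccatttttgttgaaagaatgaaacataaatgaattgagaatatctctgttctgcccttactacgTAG
PNSL1 intron 5 (chr2:16477125-16477211): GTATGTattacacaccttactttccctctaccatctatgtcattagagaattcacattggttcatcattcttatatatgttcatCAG
PNSL1 intron 6 (chr2:16477284-16477367): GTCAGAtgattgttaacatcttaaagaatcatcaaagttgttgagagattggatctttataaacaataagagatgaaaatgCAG
PNSL1 intron 7 (chr2:16477465-16477549): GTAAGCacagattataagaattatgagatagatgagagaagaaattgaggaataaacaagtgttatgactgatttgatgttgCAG

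Intron 7 was the only one listed in both mutants. Over all genes, 260 bins were listed in both, of 541 listed in picln-1 and 3406 listed in prmt5-5. In the authors' deposited tables it was retained in 9.73% of junction reads of prmt5-5, 15.1% of those of picln-1 and 3.60% of those of WT. Its log2 usage change was 1.21 in prmt5-5 (approximate SE 0.17, adjusted p = 6.38e-11) and 1.90 in picln-1 (approximate SE 0.15, adjusted p = 5.82e-33), from the authors' deposited tables. In picln-1 that p was the third smallest of the 541 bins listed.

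Introns 1 and 6 were listed in picln-1 alone. In the authors' deposited table intron 6 was retained in 16.1% of junction reads of picln-1, 7.31% of those of prmt5-5 and 3.22% of those of WT (log2 usage change 1.74 in picln-1, approximate SE 0.18, adjusted p = 9.86e-18). By the authors' deposited table intron 1 was retained in 13.1% of reads of picln-1, 5.78% of prmt5-5 and 3.58% of WT (log2 usage change 1.54 in picln-1, approximate SE 0.25, adjusted p = 8.74e-07). In both introns the share in prmt5-5 lay between those of picln-1 and WT.

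Introns 2 and 4 were listed in prmt5-5 alone. In the authors' deposited table intron 2 was retained in 10.1% of junction reads of prmt5-5, 5.48% of picln-1 and 3.44% of WT (log2 usage change 1.397 in prmt5-5, approximate SE 0.18, adjusted p = 2.24e-12). By the authors' deposited table intron 4 was retained in 10.0% of reads of prmt5-5, 9.60% of picln-1 and 4.86% of WT (log2 usage change 0.67 in prmt5-5, approximate SE 0.23, adjusted p = 0.0716). The share of intron 4 was thus almost the same in both mutants, 0.413 percentage points apart, although it was listed in only 1 of the tables. The bin of intron 2 is the part shared by 2 annotated forms: the longer form, in 2 of 3 annotated transcripts, starts at 16476535 on chromosome 2 in place of 16476559. All listed PNSL1 introns lie within the coding sequence of the first annotated transcript, and the overlap of 52 bases with AT2G39480 at the end of the gene does not reach them.

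**Figure D4:**
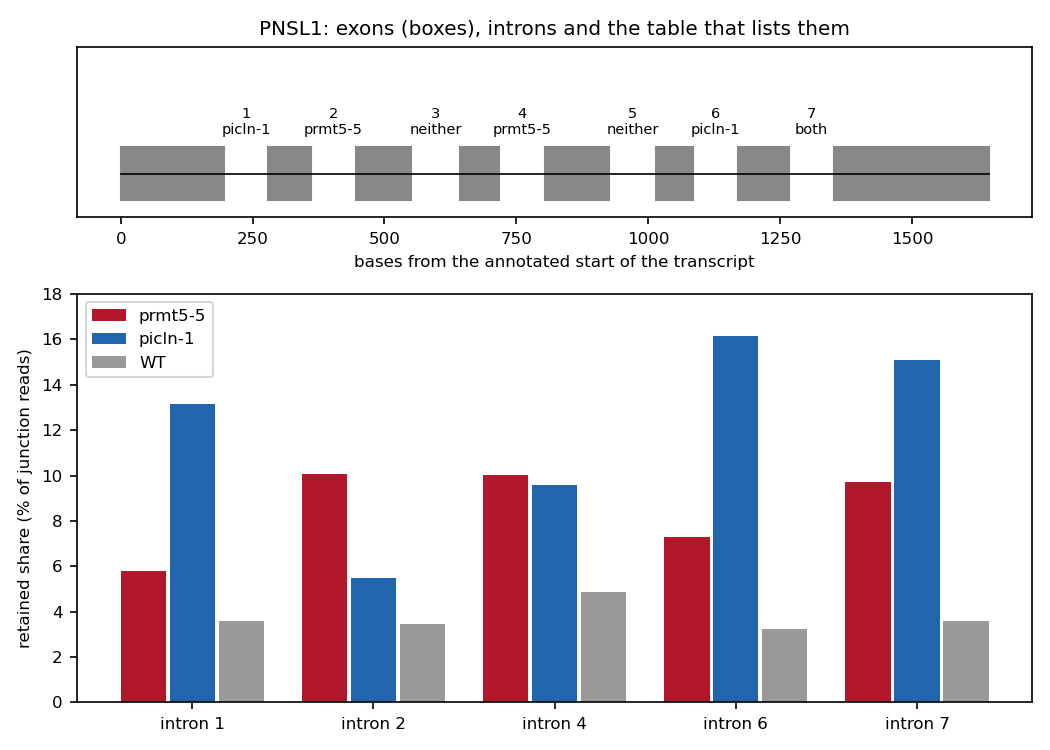
Upper panel, exons (grey boxes) and introns of PNSL1 by distance in bases from the annotated start, each intron marked with the mutant whose table lists it; lower panel, retained share in percent of junction reads of the 5 listed introns in prmt5-5 (red), picln-1 (blue) and WT (grey), pooled by the authors with no error. Every mutant bar stands above the WT bar beside it, with picln-1 highest in introns 1, 6 and 7 and prmt5-5 highest in introns 2 and 4.

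Relative to other listed introns, the PNSL1 changes were small in prmt5-5. The median bin listed as higher in prmt5-5 was retained in 15.0% in prmt5-5 and 2.44% in WT, with a log2 usage change of 2.18, in the authors' deposited table, above all 3 PNSL1 values there. In picln-1 the corresponding medians were 15.6% in picln-1 and 4.54% in WT with a log2 usage change of 1.62, and PNSL1 lay on either side of it. Genes with 3 or more listed bins numbered 136 in prmt5-5 and 14 in picln-1, and PNSL1 was 1 of 10 genes with 3 or more in both.

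The introns of PNSL1 were between 82 and 93 bases long, counting the shorter form of intron 2, where the median annotated intron had 101 bases. The 5′ splice sites were scored in bits by a position weight matrix over 9 bases (3 exon and 6 intron bases) built from 129455 annotated introns, whose median score was 7.07. With the shorter form of intron 2, the 3 introns listed in prmt5-5 had the lowest scores of the gene: 3.41 for intron 4, 4.70 for intron 7 and 5.01 for intron 2. Introns 3 and 5, listed in neither mutant, scored 8.94 and 9.94. The 3 introns listed in picln-1 include the same intron 7 at 4.70, with intron 1 at 8.77 and intron 6 at 6.08. The longer form of intron 2, in 2 of 3 annotated transcripts, scored 6.94, above intron 6. With that form the 3 introns listed in prmt5-5 are no longer the lowest. The scores describe 7 introns of a single gene and were not tested.

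Other genes of chloroplast function were read from further lists, also chosen with earlier results of these data known, to place the antenna genes. In the regulator list, 8 of 25 genes (32.0%) were listed in prmt5-5, 3 higher and 5 lower, beside 9.14% of all genes tested, 4.99% higher and 4.15% lower. The 5 lower genes include several known to promote chloroplast genes: in the authors' deposited table HYH (log2 change -1.11) and HY5 (-0.69), bZIP factors of the light response, the GATA factors GNC (-0.85) and GNL (-0.80), and GLK2 (-0.60), a direct activator of antenna genes. The 3 higher genes in the authors' deposited table were SIG3, a chloroplast RNA polymerase sigma factor (2.83-fold higher), and the phytochrome-interacting factors PIF4 (2.56-fold higher) and PIF5 (1.64-fold higher), a class known to repress chlorophyll and antenna genes in the dark. These 5 falls stood beside rises of 15 of the 20 antenna genes in the same mutant. In the authors' deposited table intron 7 of 8 of SIG3 was retained in 80.1% of junction reads of prmt5-5, 20.0% of picln-1 and 22.3% of WT. None of the 25 was listed for expression in picln-1.

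Few other photosynthesis genes were listed for expression in prmt5-5. In the chlorophyll list 2 of 32 genes were listed, both higher: PORB, which makes chlorophyllide in light, rose by 1.01 and HEMG2, a protoporphyrinogen oxidase, by 0.59 on the log2 scale in the authors' deposited table. The list of electron transport and ATP synthase genes had 1 of 17, the ferredoxin gene FD1, which fell by 0.82, and the list of antenna insertion factors and stress relatives had 1 of 14, ELIP1, which fell by 0.61, both in the authors' deposited table. No gene was listed among 20 genes of carbon fixation or 12 of photosystem assembly. In picln-1 no gene of these 5 lists was listed for expression. These shares, 6.25%, 5.88% and 7.14% in the lists with any gene, rest on 1 or 2 genes each. They lie near the 9.14% of all genes tested, beside 75.0% for the antenna genes.

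Splicing calls were also read from the lists. In prmt5-5, 10 of 32 chlorophyll genes had listed bins, 16 in all and each with higher usage. Of all 3406 bins listed in prmt5-5, 3335 had higher usage. The 10 genes were 33.3% of the 30 with an annotated intron, where 11.6% of all protein-coding genes with an annotated intron had a listed bin. That 11.6% counts genes whether or not they were tested, and numbers of introns per gene were not matched. The 10 genes are HEMA1, HEMA2, HEMD, HEMG1, HEMG2, CHLM, CHLG, CAO, HCAR and PAO. HEMA1, which encodes the glutamyl-tRNA reductase at the entry of the pathway, had in the authors' deposited table a retained share of intron 1 of 2 of 10.9% in prmt5-5, 2.44% in picln-1 and 0% in WT. HEMD, uroporphyrinogen III synthase, had by the authors' deposited table a retained share of intron 5 of 8 of 20.9% in prmt5-5, 7.41% in picln-1 and 4.46% in WT. LHCB7, a relative of the antenna proteins outside the 46, had by the same authors' deposited table a retained share of intron 1 of 5 of 52.2% in prmt5-5, 15.6% in picln-1 and 7.50% in WT. The remaining genes with a listed bin in prmt5-5 were PGRL1B, RCA, TKL1, FTSY, SEP1, Y3IP1, PIF1 and COP1. Among genes with an annotated intron, shares with a listed bin were 7.69% for electron transport, 11.8% for carbon fixation and 10.0% for assembly. They were 12.5% for regulators and 23.1% (3 of 13) for antenna insertion factors and stress relatives, beside 11.6% of all such genes. RCA had 1 bin with higher and 1 with lower usage (log2 usage change -0.79). FTSY, the chloroplast receptor that delivers antenna proteins to the thylakoid, had 3 listed introns, all with higher usage. In picln-1 the lists held 3 genes with listed bins, HEMG2, CHLM and SIG4. These were 2 of 30 chlorophyll genes (6.67%) and 1 of 24 regulators (4.17%) with an annotated intron. Among all 22245 protein-coding genes with an annotated intron, 467 (2.099%) had a listed bin in picln-1.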

How the data were processed

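The authors deposited 4 tables of their own comparisons, prmt5-5 against WT and picln-1 against WT, for gene expression and for bin usage. The aligner TopHat and the TAIR10 build are given per the submitters' processing notes. The counting and testing program is not given in the sources used. Per the file headers, the authors gave a log fold change of mutant over WT, a p-value and an adjusted p-value. The base of these log2 changes, deposited by the authors, is not stated. Base 2 was taken because the smallest listed size then equals a 1.49-fold to 1.50-fold change. Bin tables of the authors also hold a pooled fraction of junction reads for every genotype, printed here as a percent. Counts per library were not used here, so the planned count tests were not run, calls were counted as they stand and sequencing depth is unknown.

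The genes tested were recovered from adjusted p divided by p, which is that number divided by the rank, a step tested on simulated data. The recovered numbers gave whole ranks for 94.7% of gene rows in prmt5-5 and 87.8% in picln-1. For bin rows these shares were 84.9% in prmt5-5 and 80.8% in picln-1, so the numbers tested are estimates. RefSeq TAIR10.1 gave gene models and sequences: 99.7% of intron bins listed in prmt5-5 and 99.4% in picln-1 equal annotated introns. Copies were compared by global alignment. The 46 genes and the other lists were chosen with earlier results of these data known, and no set test was made. All listed members were named, and up to 10 listed genes of each other list. Alternatives were stricter limits, another background, members without close copies, intron bins alone and the other mutant in place of WT. Python 3.11.15, numpy 2.4.6, pandas 2.3.3, scipy 1.17.1, biopython 1.88 and matplotlib 3.10.9 were used.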

Additional observations from a re-analysis of the deposited data

How the results depend on the processing

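The 18 photosystem genes listed in prmt5-5 and the 1 in picln-1 also passed an adjusted p below 0.01. With a log2 change of at least 1, 7 were listed in prmt5-5 and 0 in picln-1. Without the 7 members that have another member of over 95% protein identity, 12 were listed in prmt5-5 and 1 in picln-1. Among the 27444 annotated nuclear protein-coding genes, 1464 (5.33%) were listed in prmt5-5 and 248 (0.904%) in picln-1. The 1 gene with listed bins, PNSL1, also had listed bins with an adjusted p below 0.05 and with intron bins alone in both mutants. With a change of the fraction above 0.1 it had 0 listed bins in prmt5-5, so 0 genes were left there, and 2 in picln-1. At an adjusted p below 0.05, intron 4 in prmt5-5 was lost. Read against the other mutant in place of WT, PNSL1 intron 7 in prmt5-5 reversed: its difference was -5.34 percentage points against picln-1 and 6.13 percentage points against WT. The other 5 listed PNSL1 changes kept their sign. For introns 1, 2, 4 and 6 this followed from the listing and is no check. In each, the other mutant lay 2.03 to 4.74 percentage points above WT, under the fraction limit of 0.05. For intron 7 both signs restate that picln-1 retained more than prmt5-5. Leaving out single replicates and the fits by other count tools were not run, as they need values per library. No paired analysis was possible because the results come from the authors' calls and no value per library was used here. Depth is unknown, so no interval can be given for a retained share.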
